A study of Mus musculus with 48 samples.

Results

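Kidneys of mice that had received only saline were compared by the route of injection, intraperitoneal (ip, into the abdominal cavity) against intravenous (iv, into a vein). The samples were chosen by their titles and numbered 12 of the 48 arrays in the series, 6 from ip saline mice and 6 from iv saline mice. The series was made to assess kidney damage by vancomycin, an antibiotic, with saline controls on both routes. All were female BALB/c mice, an inbred laboratory strain, injected daily for 7 days and killed on day 8. No group carried a transgene or deletion, and neither the age of the mice nor the hour of killing is given in the sources used here. A second pair of groups, 6 ip and 6 iv mice given vancomycin at 50 mg/kg per day, is used below as the nearest set of other animals on the same routes. Total RNA of a piece of whole kidney was labelled with biotin and hybridised to a single-colour Affymetrix array, 1 mouse per array.

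The largest differences were found in members of 2 gene lists, the immediate early genes and the circadian clock. Immediate early genes are transcribed within minutes of a stimulus such as a growth factor, a stress or a surge of cyclic AMP or calcium, without new protein synthesis, and many encode transcription factors. The circadian clock is a feedback loop in which ARNTL (BMAL1) pairs with CLOCK or NPAS2 to activate genes through E-box sequences, and PER and CRY proteins hold that pair back. In the kidney the clock drives daily rhythms of transport and blood pressure control, so the level of a clock gene depends on the hour at which tissue is taken.

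Values are log2 intensities after quantile normalization over the 12 arrays, so a difference of 1 is a 2-fold difference. This step was needed because the arrays of the routes differed in overall spread. Before it, array medians ran from 3.49 to 3.58 in ip saline and from 3.34 to 3.47 in iv saline, and 90th percentiles from 9.14 to 9.16 in ip saline and from 8.29 to 8.75 in iv saline. The ip minus iv differences of 0.16 and 0.51 had an exact permutation p of 0.0022 each (two-sided, n = 6 each), the smallest that 924 splits allow. Without the normalization the median probe set kept lay 0.44 higher in ip saline, and with centring of each array on its median 0.28 higher. Quantile normalization gives all 12 arrays the same distribution of values, so every difference below is relative to that shared distribution. No label separates route from the handling, killing and hybridisation that went with it, so these cannot be told apart here. Gene names were given by position in the table to 10198 of 45101 probe sets, as the methods explain, and hold as far as that assignment does.

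Mouse 1 of the iv saline group stood apart. Its array correlated with the others of its group at a median of 0.963, against 0.982 to 0.989 for the other 5 iv saline mice and 0.986 to 0.99 for the 6 ip saline mice. The first principal component, 41.8% of the variance, separated the routes and the second, 20.1%, separated this mouse from the other 11. Counts without it are given beside the counts with it. All 16 named kidney marker genes passed the filter, among them Umod, Slc34a1 and Aqp2, and of 19 named markers of other tissues 2 did, Alb and Mbp. In whole tissue, fewer cells of a type and less RNA per cell cannot be told apart.

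Of 5379 named genes tested with limma, 1553 (28.9%) differed between the routes at a Benjamini-Hochberg adjusted p under 0.05. In ip saline 694 (12.9%) were higher and 859 (16%) lower, and 127 of the 1553 differed at least 2-fold, 50 higher and 77 lower. The 6 ip and 6 iv values did not overlap for 729 genes (13.6%). Without iv mouse 1 the test called 1902 genes. Over all 22742 probe sets kept, named or not, 6955 (30.6%) were called, with 3699 higher and 3256 lower. Without quantile normalization 95.9% of the called named genes were higher in ip saline, and with median centring 89.7%, against 44.7% here, so the split between rises and falls is set by the scaling. In 107 of the 1553 called genes the lower group averaged under 3.45, the level used as filter, and the size of those changes is approximate.

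Immediate early genes gave the largest differences, all of them lower in ip saline. Of 45 genes on the list 23 were named and 16 passed the filter. Of these 13 fell (81.2%, against 16% of all named genes), 0 rose and 3 were not called (Trib1, Myc and Ier5). The median difference was -2.10, against -0.04 over all named genes. The 13 called members did not overlap between the groups. Among all named genes, called or not, 13.6% did not, which is not a like comparison because called genes overlap less often. The 7 named members that did not pass were Fosb, Fosl1, Fosl2, Egr3, Nr4a3, Socs3 and Arc. A filter on level keeps a gene that is high in a single group, so the count describes these 16 genes and not the whole family. This list, like the others below, was chosen with earlier results of these data known, so its share is a description. Without iv mouse 1 the count was also 13 and the median -2.12. Without quantile normalization 12 fell, all but Plk2, Ier5 rose and the median was -1.59.

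Fos, the gene of an AP-1 transcription factor subunit, had a lowest, median and highest log2 intensity of 2.70, 3.64 and 4.50 in ip saline and 9.31, 10.60 and 10.95 in iv saline. The ip values lay around the filter level of 3.45, and every iv mouse was more than 4 log2 units above every ip mouse. The difference was -6.75 ± 0.33 (SE, n = 6 each, limma adjusted p = 7.5e-09), approximate in size because the ip values lay so near the filter level.

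Nr4a1, an orphan nuclear receptor, ran from 5.49 over a median of 5.68 to 6.06 in ip saline and from 9.91 over 10.33 to 10.83 in iv saline. Neither group spread by more than 1 log2 unit, and the gap between them was wider than either range. The difference was -4.65 ± 0.16 (adjusted p = 3.5e-10). Rasd1, a small Ras-like GTPase induced by dexamethasone, was as tight, with 3.73, 3.95 and 4.11 in ip saline and 7.53, 7.92 and 8.26 in iv saline. Its difference was -3.96 ± 0.14 (adjusted p = 3.9e-10).

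Egr1, a zinc finger transcription factor, varied more among the ip mice than any other called member, with 5.48, 6.06 and 8.56 in ip saline and 10.28, 11.08 and 11.52 in iv saline. Mice 65 and 66, at 8.56 and 7.51, were the highest ip mice, and both stayed below every iv mouse. The difference was -4.45 ± 0.44 (adjusted p = 6.1e-06). Plk3, a polo-like kinase of the stress response, had 3.13, 3.28 and 5.35 in ip saline and 7.04, 7.71 and 8.41 in iv saline. The ip maximum was mouse 64, and the next ip mouse had 3.59. The difference was -4.13 ± 0.35 (adjusted p = 1.2e-06).

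Csrnp1, a nuclear protein with cysteine- and serine-rich stretches, had 4.19, 4.63 and 4.91 in ip saline and 7.48, 7.96 and 8.21 in iv saline, a difference of -3.32 ± 0.15 (adjusted p = 3.1e-09). Jun, the AP-1 partner of Fos, had 7.45, 8.28 and 8.66 in ip saline and 10.12, 10.74 and 11.05 in iv saline, a difference of -2.59 ± 0.20 (adjusted p = 6.2e-07). Unlike Fos, Jun was well above the filter in both groups. Cebpb, a basic leucine zipper factor of acute responses, had 6.83, 6.93 and 8.05 in ip saline and 9.19, 9.74 and 10.03 in iv saline, a difference of -2.57 ± 0.20 (adjusted p = 5.5e-07). Its highest ip mouse was again mouse 64.

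The other called members changed less. Cebpd, a close relative of Cebpb, fell by 1.63, Klf6 by 1.28 and Klf4 by 1.20 on the log2 scale, the last 2 being zinc finger factors of the Krüppel-like family. Plk2, a second polo-like kinase, fell by 0.65 and Maff, a small Maf factor, by 0.48. Group means of Klf6 and Maff in ip saline were under 3.45. The members not called were Trib1 at -0.27, the proto-oncogene Myc at -0.16 and Ier5 at 0.12. Averaged over the 16 tested members, the level per mouse was 5.07 to 5.49 in ip saline and 7.52 to 7.77 in iv saline.

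**Figure D1:**
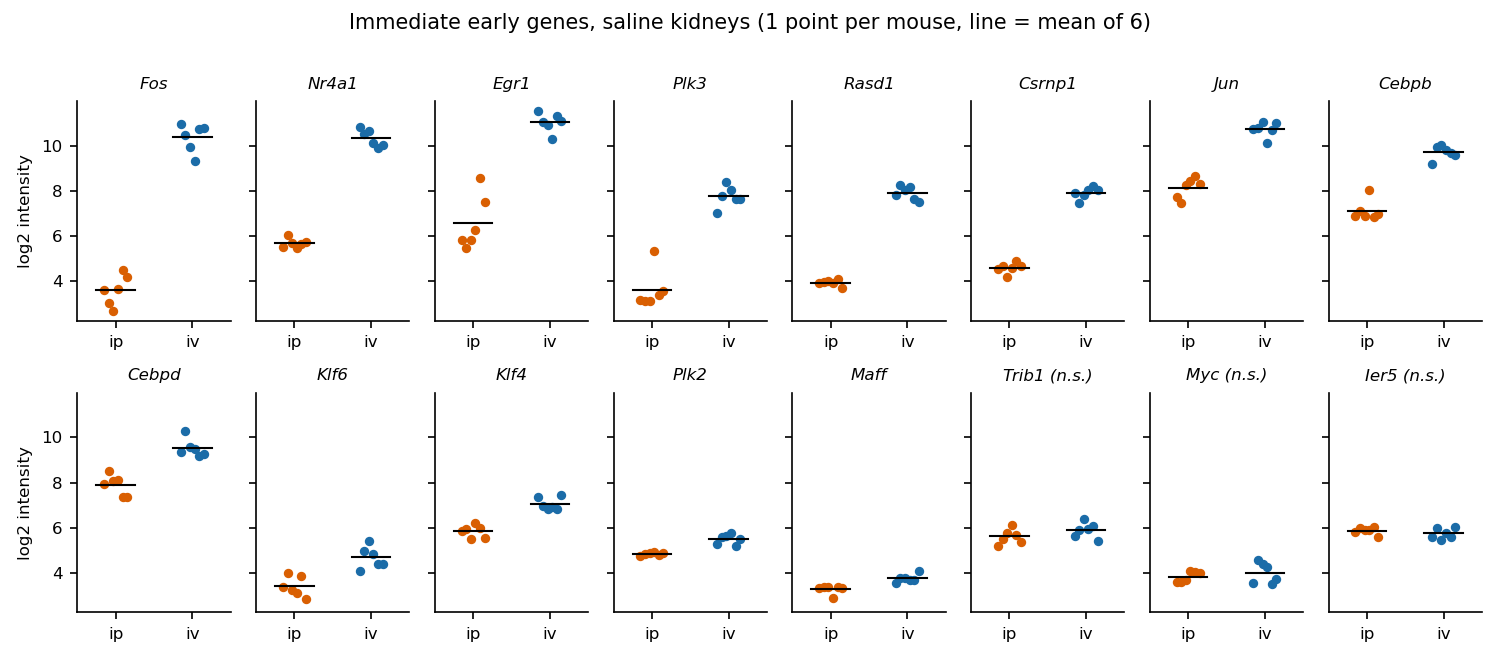
Log2 intensity (y axis) of the 16 tested immediate early genes in each of 6 ip saline mice (orange, left) and 6 iv saline mice (blue, right), with a line at the mean of each group. Genes run from the largest fall, Fos at -6.75, to Ier5 at 0.12, and the points of the 2 groups do not overlap for the 13 genes from Fos to Maff (n.s., not called).

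Further genes with large falls lay outside the immediate early list, and 3 are described here. Id1, which encodes an inhibitor of DNA binding by helix-loop-helix factors, had 7.97, 8.37 and 9.22 in ip saline and 10.38, 10.63 and 11.04 in iv saline. The groups did not overlap, and the difference was -2.28 ± 0.19 (adjusted p = 9.3e-07). Ptgs2, the inducible cyclooxygenase, had 2.95, 2.99 and 3.08 in ip saline and 4.50, 4.82 and 5.35 in iv saline, a difference of -1.83 ± 0.12 (adjusted p = 1.6e-07). All 6 ip values of Ptgs2 were under 3.45. Slc25a25, a calcium-regulated mitochondrial carrier of adenine nucleotides, had 4.79, 6.78 and 7.20 in ip saline and 7.95, 8.36 and 9.49 in iv saline, a difference of -2.24 ± 0.45 (adjusted p = 0.0019).

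Promoter windows of the called immediate early and clock genes were searched for short motifs. The windows are those of RefSeq on build GRCm38.p6 and reach from 250 bases before to 50 bases after an annotated start. For Nr4a1 this is not the outermost start of the gene. Motifs were read on both strands. The window of Fos is shown because its gene had the largest fall, and that of Nr4a1 because it held the most copies of TGACG among the called immediate early genes. Those of Ciart and Per3 held the most copies of the E-box and of the D-box TTATGTAA among the called clock genes. In Fos and Nr4a1 capitals mark TGACG (or CGTCA on the other strand), a partial copy of the cyclic AMP response element TGACGTCA. In Ciart capitals mark the E-box CACGTG and in Per3 the D-box TTATGTAA, which DBP, TEF and HLF bind. The windows lie at chr12:85473640-85473939 (Fos, plus strand), chr15:101266596-101266895 (Nr4a1, plus strand), chr3:95882179-95882478 (Ciart, minus strand) and chr4:151044616-151044915 (Per3, minus strand), and each is written 5′ to 3′ along its gene.
Fos: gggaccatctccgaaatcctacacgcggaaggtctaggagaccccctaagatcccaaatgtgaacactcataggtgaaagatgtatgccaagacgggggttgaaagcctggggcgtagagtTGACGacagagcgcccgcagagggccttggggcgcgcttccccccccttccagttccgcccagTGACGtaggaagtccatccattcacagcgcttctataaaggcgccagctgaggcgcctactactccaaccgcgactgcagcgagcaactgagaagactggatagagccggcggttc
Nr4a1: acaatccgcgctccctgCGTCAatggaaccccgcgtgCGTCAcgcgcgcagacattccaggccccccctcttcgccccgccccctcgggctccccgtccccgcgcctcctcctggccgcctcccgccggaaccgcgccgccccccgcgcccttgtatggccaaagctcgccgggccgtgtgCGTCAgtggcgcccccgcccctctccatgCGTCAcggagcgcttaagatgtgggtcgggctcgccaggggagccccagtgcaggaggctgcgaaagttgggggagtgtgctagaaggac
Ciart: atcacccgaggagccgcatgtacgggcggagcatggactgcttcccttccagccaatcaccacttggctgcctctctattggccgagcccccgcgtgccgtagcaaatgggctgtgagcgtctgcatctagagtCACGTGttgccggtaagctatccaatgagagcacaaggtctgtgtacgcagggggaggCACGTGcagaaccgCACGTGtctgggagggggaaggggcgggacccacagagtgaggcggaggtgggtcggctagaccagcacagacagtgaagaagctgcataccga
Per3: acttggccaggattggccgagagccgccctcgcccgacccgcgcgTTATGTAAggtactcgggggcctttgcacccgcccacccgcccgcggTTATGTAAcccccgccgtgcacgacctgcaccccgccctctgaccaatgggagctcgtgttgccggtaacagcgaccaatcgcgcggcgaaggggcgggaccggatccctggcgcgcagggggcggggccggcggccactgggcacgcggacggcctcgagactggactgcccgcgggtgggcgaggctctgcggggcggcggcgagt

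Of the 13 called immediate early genes 10 had a window, and 8 of the 10 held TGACG, with 4 copies in Nr4a1 and 2 in Fos. It was also in 3 of the 10 clock genes with a window, Cry2, Hlf and Usp2, and in 20.8% of all 32851 windows. TGACG was added to the motifs after the windows had been seen, and some genes have several windows, so the counts are a description. The full element TGACGTCA, each copy of which counts as 2 copies of TGACG, was in 2 of the 10 immediate early genes (Maff and Plk2) and in 1 clock gene (Hlf), against 1.79% of all windows, and the CArG box in 0, against 1.63%. Of the 12 called clock genes 10 had a window. The E-box was in 2, Ciart with 3 copies and Tef with 1 in each of its windows, and in 3 of the 10 immediate early genes (Klf4, Klf6 and Maff), against 7.15% of all windows. The D-box TTATGTAA was in Per3, with 2 copies, against 0.938% of all windows, and TTATGCAA in 0, against 0.743%.

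Clock genes differed in both directions. Of 25 names on the list 20 were named and 19 passed the filter, all but Bhlhe41. Of these 19, 3 rose (Arntl, Npas2 and Clock), 9 fell and 7 were not called, with a median of -0.63. The shares of tested members were 15.8% higher and 47.4% lower, against 12.9% and 16% of all named genes. They too describe a list chosen with earlier results of these data known. In 8 of the 12 called genes the groups did not overlap. The 13.6% of all named genes, called or not, is not a like comparison, because called genes overlap less often. Without iv mouse 1 the counts were again 3 and 9. Without quantile normalization 5 rose and 4 fell (Ciart, Dbp, Per2 and Per3) and the median was -0.14, so the balance between rises and falls depends on the scaling.

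The activating arm was higher in ip saline. Arntl, also called Bmal1, had 4.43, 4.65 and 5.42 in ip saline and 2.79, 2.94 and 3.49 in iv saline. Every ip mouse was above every iv mouse, and all but one iv value lay under 3.45. The difference was 1.75 ± 0.17 (adjusted p = 5.6e-06). Npas2, which can take the place of Clock, had 3.91, 4.82 and 5.54 in ip saline and 2.67, 3.26 and 4.13 in iv saline. Its groups overlapped in a single ip and a single iv mouse, and the difference was 1.45 ± 0.29 (adjusted p = 0.0019). Clock had 8.01, 8.18 and 8.36 in ip saline and 6.69, 7.45 and 7.66 in iv saline, without overlap, a difference of 0.86 ± 0.15 (adjusted p = 0.00068).

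The repressing arm was lower in ip saline, in part. Ciart, a repressor of the CLOCK and BMAL1 pair whose window holds the 3 E-boxes shown above, had 3.22, 3.81 and 4.68 in ip saline and 7.27, 7.69 and 8.19 in iv saline. The groups were far apart, with a difference of -3.74 ± 0.25 (adjusted p = 1.5e-07). Per2 had 5.44, 5.78 and 5.95 in ip saline and 6.46, 6.80 and 7.36 in iv saline, without overlap, a difference of -1.17 ± 0.16 (adjusted p = 0.00012). Per3, with 4.71, 4.95 and 5.67 in ip saline and 5.52, 6.28 and 6.88 in iv saline, overlapped in a single mouse of each route and differed by -1.25 ± 0.21 (adjusted p = 0.00062). Cry2 differed by -0.73 ± 0.18 (adjusted p = 0.0079). Nr1d1 and Nr1d2, nuclear receptors that repress Arntl, were not called, at -0.21 ± 0.22 and -0.15 ± 0.09, nor was Rora, their opposing receptor, at 0.13 ± 0.17, although without quantile normalization Nr1d2 and Rora were called higher (0.29 and 0.66).

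The output factors Dbp, Tef and Hlf were lower after quantile normalization. Dbp, a factor that binds D-boxes, had 6.90, 7.90 and 8.74 in ip saline and 9.61, 10.00 and 10.70 in iv saline, a difference of -2.21 ± 0.32 (adjusted p = 0.00015). Its ip values fell into a low set (mice 61, 63 and 64) and a higher set (mice 62, 65 and 66), all below the iv mice. Its relatives Tef and Hlf fell by 0.69 and 0.52 on the log2 scale, both without overlap. Neither was called without quantile normalization (-0.20 and -0.02) or with median centring (-0.36 and -0.19). Nfil3, which competes with them for the same sites, was not called, at -0.63 ± 0.30 (adjusted p = 0.13), although it was with array weights (-0.93, adjusted p = 0.023). The mitotic kinase Wee1, a clock output, fell by 0.77. Usp2, a deubiquitinase with a daily rhythm, was at -0.65 ± 0.22 (adjusted p = 0.038) and lost its call without iv mouse 2, 3, 4 or 5 or without ip mouse 61, 62 or 63, with adjusted p of 0.056 to 0.088, and without quantile normalization (-0.22, adjusted p = 0.46). The kinases Csnk1d and Csnk1e, which phosphorylate PER proteins, and the repressor Bhlhe40 were not called, although Bhlhe40 was without ip mouse 66 (adjusted p = 0.035). No label gives the hour at which either group was killed, so a difference in hour was not tested.

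**Figure D2:**
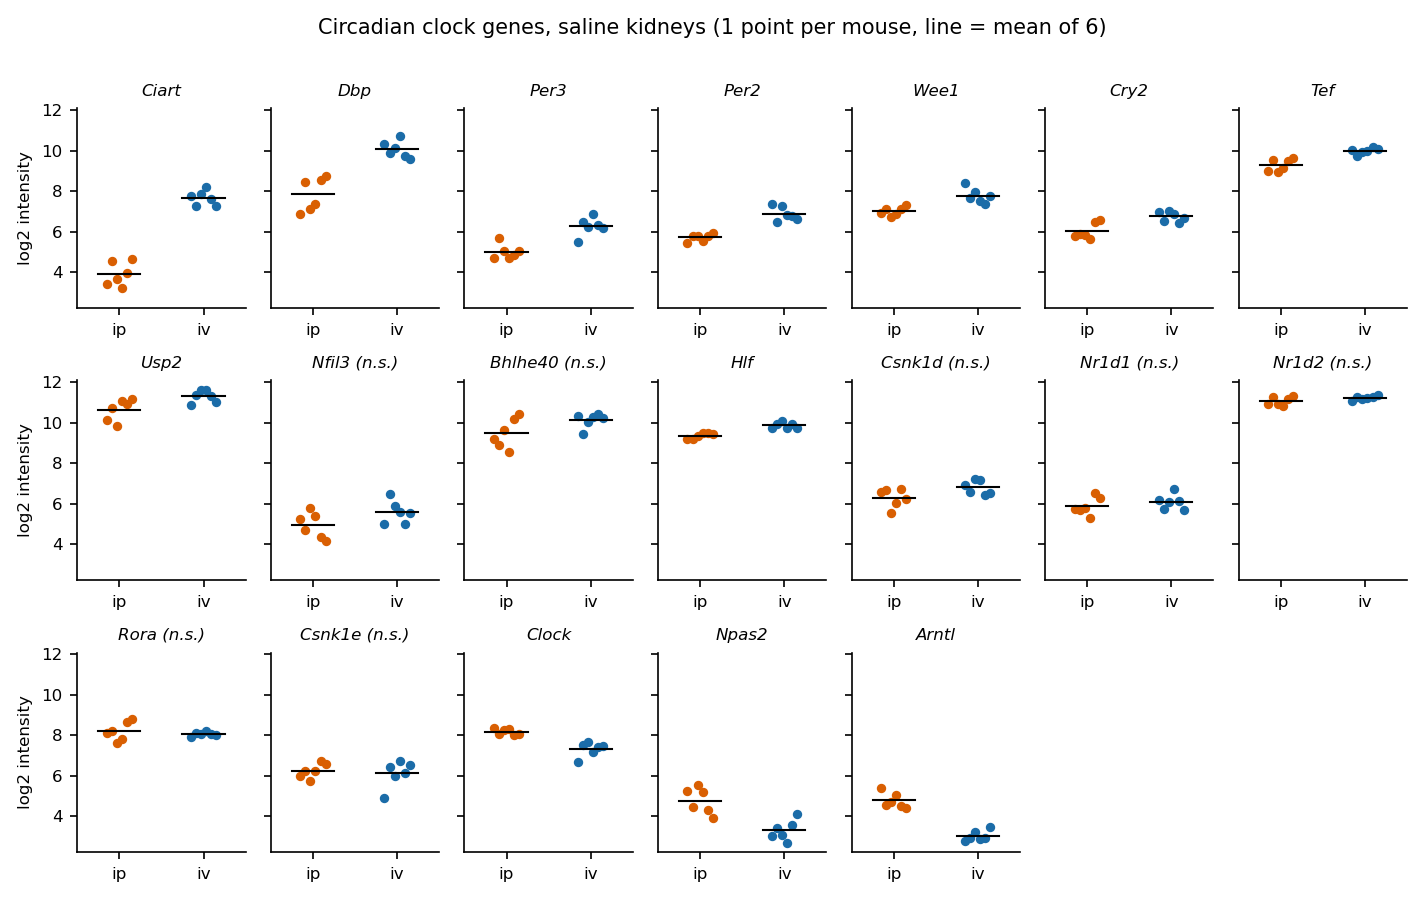
Log2 intensity (y axis) of the 19 tested circadian clock genes in each of 6 ip saline mice (orange, left) and 6 iv saline mice (blue, right), with a line at the mean of each group, from the largest fall to the largest rise. Ciart, Dbp, Per3 and Per2 are lower in ip saline and Clock, Npas2 and Arntl higher, while 7 genes are not called (n.s.).

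The route comparison was repeated in other mice, the 6 ip and 6 iv animals given vancomycin at 50 mg/kg. There 4374 of 22712 probe sets were called (19.3%), and of 5344 named genes kept in both comparisons 888 (16.6%). Of 1534 genes called in saline, 692 (45.1%) were called at 50 mg/kg in the same direction, which is 77.9% of the 888 called there. A single gene, Vmp1, was called in opposite directions. The test of the difference between the 2 route differences called 50 of 23505 probe sets (0.213%), and 13 of these were named, all with a lower ip minus iv value in saline. They were Nr4a1, Plk3, Rasd1, Csrnp1, Jun, Cebpb, Ciart, Id1 and Ptgs2, and, named after their values were seen, Rprd2, Snhg3, Tsc22d1 and Vmp1.

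For these genes the iv saline group stood above the other 3 groups on a scale common to the 24 arrays. Nr4a1 averaged 5.70 ± 0.20 in ip saline and 10.35 ± 0.37 in iv saline, and 5.62 ± 0.17 in ip 50 mg/kg and 6.21 ± 0.83 in iv 50 mg/kg mice (SD, n = 6 each). The saline difference minus that at 50 mg/kg was -4.06 ± 0.36 (SE, adjusted p = 2.3e-07), and at 50 mg/kg Nr4a1 was not called (-0.59, adjusted p = 0.20). Csrnp1 averaged 4.60 ± 0.23 in ip saline and 7.92 ± 0.25 in iv saline, and 4.46 ± 0.18 in ip and 5.36 ± 0.39 in iv 50 mg/kg mice. Rasd1 averaged 3.95 ± 0.12 in ip saline and 7.91 ± 0.29 in iv saline, and 3.92 ± 0.12 in ip and 5.28 ± 0.88 in iv 50 mg/kg mice. For these 3 genes the ip ranges overlapped between saline and 50 mg/kg, and the iv ranges did not.

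Fos had the same order with more spread. It averaged 3.62 ± 0.68 in ip saline and 10.36 ± 0.62 in iv saline, and 3.01 ± 0.64 in ip and 5.93 ± 2.09 in iv 50 mg/kg mice, where single mice ran from 2.59 to 8.06. The difference between the route differences was -3.83 ± 0.89 and was not called (adjusted p = 0.082), and that of Egr1 was -2.73 ± 0.81 (adjusted p = 0.32). At 50 mg/kg 5 of 15 tested immediate early genes fell and 1 rose, with a median of -0.59, where 16.6% of all named genes were called. The 5 falls were Fos at -2.92 (adjusted p = 0.015), Plk3 at -1.67 (adjusted p = 0.0026), Rasd1 at -1.36 (adjusted p = 0.0083), Csrnp1 at -0.90 (adjusted p = 0.0022) and Cebpb at -0.79 (adjusted p = 0.013), and the rise was Trib1 at 0.61 (adjusted p = 0.015).

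For Ciart the means of the ip groups lay apart as well. It averaged 3.92 ± 0.59 in ip saline and 7.66 ± 0.35 in iv saline, and 5.64 ± 0.91 in ip and 6.18 ± 0.62 in iv 50 mg/kg mice. The test of the difference gave -3.21 ± 0.49 (adjusted p = 0.0011). Ciart was not alone in this. Means in ip saline and ip 50 mg/kg mice were 7.85 and 9.54 for Dbp, 5.72 and 6.60 for Per2, 4.79 and 3.84 for Arntl and 4.78 and 3.71 for Npas2. In iv saline and iv 50 mg/kg mice they were 10.07 and 10.13 for Dbp and 3.03 and 3.20 for Arntl. Nr1d1 had 5.89 and 6.05 in the ip groups. These dose differences within a route were not tested. Of the 19 clock genes tested at 50 mg/kg 3 rose and 1, Cry2, fell, with a median of 0. This share called was near the 16.6% of all named genes called there. Clock rose there by 0.66 (adjusted p = 0.0046), Npas2 by 0.53 (adjusted p = 0.010) and Csnk1e by 0.43 (adjusted p = 0.029), while Arntl was not called (0.64, adjusted p = 0.089). Apart from Ciart no clock gene was called for a difference between saline and 50 mg/kg. With 0.213% of all probe sets called by that test, this does not show that the differences were equal.

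**Figure D3:**
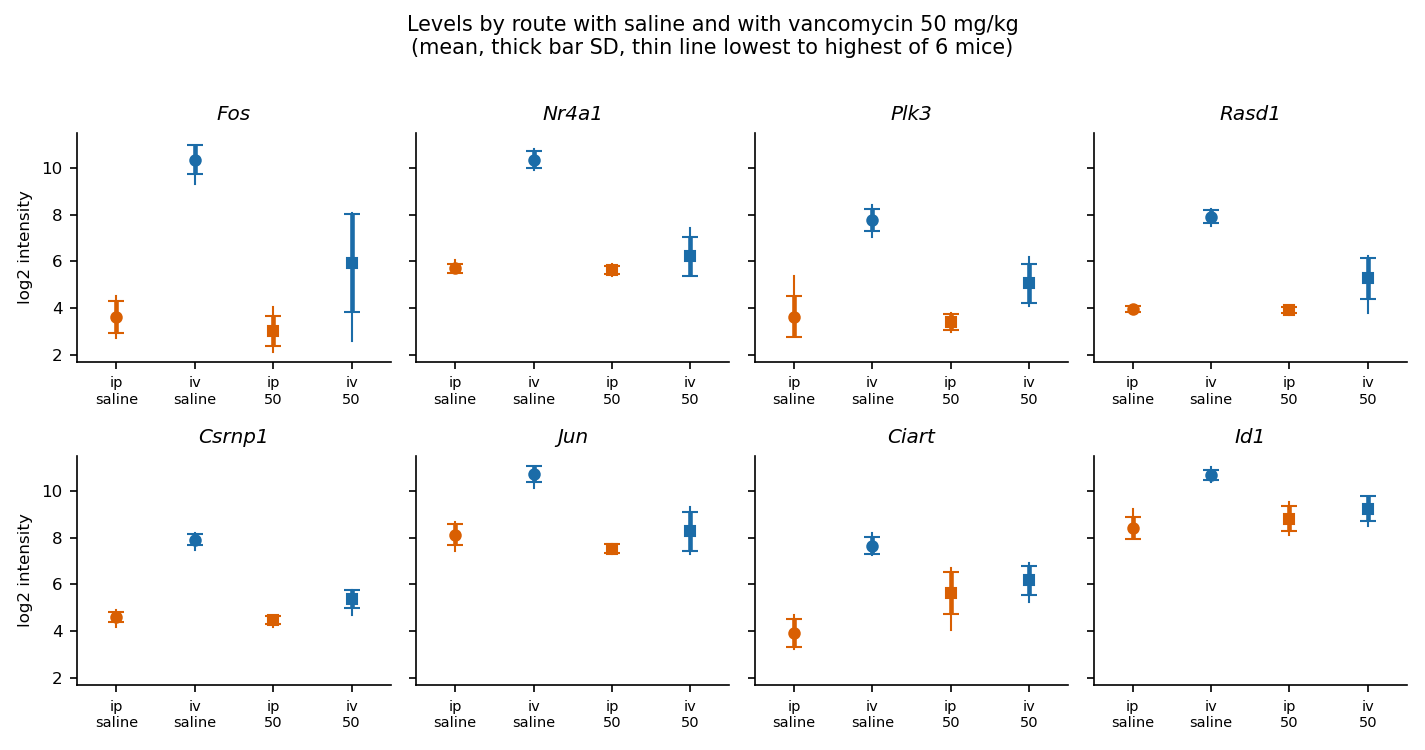
Log2 intensity (y axis) on the common scale of 24 arrays for 8 genes in ip saline, iv saline, ip 50 mg/kg and iv 50 mg/kg mice, as the mean (point), SD (thick capped bar) and lowest to highest of 6 mice (thin line). In all 8 panels iv saline has the highest mean, 10.35 for Nr4a1 against 6.21 in iv 50 mg/kg mice.

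**Figure D4:**
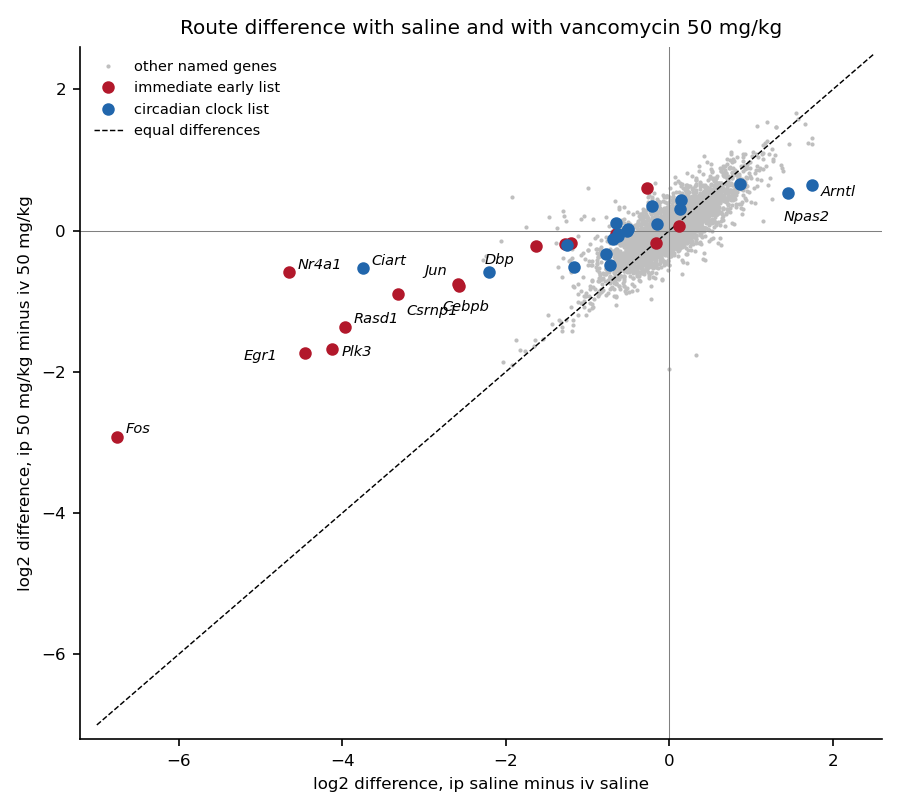
The ip minus iv difference in log2 intensity for every named gene kept in both comparisons, with saline (x axis) and with vancomycin at 50 mg/kg (y axis), immediate early genes in red, clock genes in blue and the dashed line marking equal differences. Fos lies at -6.75 and -2.92 and Nr4a1 at -4.65 and -0.59, above the line, while most other genes lie near it.

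The 12 largest rises in ip saline were taken among called genes with no overlap between the groups and a higher mean above 6, a limit that left out Arntl and Npas2 of the clock list. Ip6k2, an inositol hexakisphosphate kinase, had 7.50, 8.27 and 8.50 in ip saline and 6.01, 6.41 and 6.77 in iv saline, a difference of 1.75 ± 0.17 (adjusted p = 5.7e-06). Kpna4, an importin alpha that carries proteins into the nucleus, had 8.70, 9.12 and 9.62 in ip saline and 7.15, 7.36 and 7.64 in iv saline, a difference of 1.74 ± 0.14 (adjusted p = 7e-07). Dmxl1, a rabconnectin linked to proton pump assembly, had 8.45, 8.52 and 8.75 in ip saline and 6.50, 6.88 and 7.25 in iv saline, a difference of 1.69 ± 0.13 (adjusted p = 3.7e-07). The ip mice of Dmxl1 lay closer together than those of the other 2.

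The other 9 were Tmem123, a membrane glycoprotein, at 1.57, the Hsp70 relative Hspa14 at 1.46, the WASH complex subunit Washc4 at 1.39, the initiation factor Eif2a at 1.38, Txndc16 at 1.30, cyclin C (Ccnc) at 1.29, the N-glycan enzyme Mgat2 at 1.27, Ypel2 at 1.23 and the TRAF-binding adaptor Tank at 1.18. All 12 also had a positive difference at 50 mg/kg, from 0.74 for Ypel2 to 1.58 for Tmem123, and 11 were called there, all but Eif2a (0.89, adjusted p = 0.056). Among named genes kept in both comparisons 16.6% were called at 50 mg/kg. Of the genes called in saline 45.1% were called there in the same direction. The 12 were taken for large differences without overlap, so neither share is a like comparison. None of the 12 was called for a difference between saline and 50 mg/kg. That test called 0.213% of all probe sets, so the lack of a call does not set the 12 apart.

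Called genes of kidney segments mostly differed by smaller amounts, and the counts are to be read against the 28.9% called among all named genes. The loop and distal tubule list had 6 rises and 3 falls among 17 tested genes and a median of -0.01 (6 and 2 without iv mouse 1), or 35.3% higher and 17.6% lower against 12.9% and 16% of all named genes. Umod, the uromodulin gene of the thick ascending limb, had 13.89, 14.06 and 14.24 in ip saline and 13.24, 13.30 and 13.64 in iv saline. The groups did not overlap, the highest iv mouse being mouse 1, and the difference was 0.69 ± 0.08 (adjusted p = 1.8e-05). Trpm7, a magnesium channel and kinase, rose by 0.81, Slc12a1, the sodium, potassium and chloride cotransporter of the same limb, by 0.49 and Wnk4, a kinase that regulates salt transport, by 0.43. A second, dim probe set named Slc12a1 was at -0.38 (adjusted p = 0.15). Bsnd, the barttin subunit of chloride channels, fell by 0.60.

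Proximal tubule transporters had 7 rises and 2 falls among 24 tested genes, with a median of 0.02 (6 and 2 without iv mouse 1), so 37.5% were called. Slc5a8, a monocarboxylate transporter, rose by 0.47 and Slc1a1, a glutamate transporter, by 0.44, whereas Slc22a6, the organic anion transporter OAT1, fell by 0.48. None of these 3 was called when all 48 arrays were fitted together. Slc34a1, the phosphate transporter, was not called (-0.03 ± 0.10, adjusted p = 0.87). Of 21 proximal tubule metabolism genes 4 rose and 4 fell (5 and 4 without iv mouse 1), or 38.1%. Ddc, which makes dopamine from DOPA, rose by 0.91 ± 0.10 (adjusted p = 1.9e-05), with 11.23, 11.39 and 11.65 in ip saline and 10.30, 10.56 and 10.75 in iv saline.

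The enzymes that make and break down active vitamin D moved in opposite directions. Cyp27b1, the 1-alpha-hydroxylase that makes it, had 3.79, 4.19 and 5.71 in ip saline and 5.53, 6.48 and 7.33 in iv saline, a difference of -1.93 ± 0.40 (adjusted p = 0.0023). Mouse 66 was the highest ip mouse and the only one above the lowest iv mouse, which was mouse 1. Cyp24a1, the 24-hydroxylase that breaks it down, had 8.36, 9.34 and 10.71 in ip saline and 7.72, 8.59 and 9.15 in iv saline, a difference of 1.04 ± 0.35 (adjusted p = 0.039). The call of Cyp24a1 was lost without iv mouse 2, 4 or 5 or ip mouse 61, 64 or 65, with adjusted p of 0.058 to 0.091, and with all 48 arrays fitted together (0.11). At 50 mg/kg neither was called, at 0.48 for Cyp27b1 and 0.60 for Cyp24a1.

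Collecting duct genes had 1 rise and 6 falls among 16 tested (37.5% lower, against 16% of all named genes), with a median of -0.33 that became 0.19 without quantile normalization. Without iv mouse 1, 8 fell. Fxyd4, a subunit regulator of the sodium pump, fell by 0.66, and Slc4a1, the chloride and bicarbonate exchanger of intercalated cells, rose by 0.58. The water channel Aqp2 had 9.99, 10.81 and 11.26 in ip saline and 10.83, 11.22 and 11.95 in iv saline and was not called (-0.60 ± 0.23, adjusted p = 0.065). Aqp2 was called without iv mouse 1 (adjusted p = 0.045), without iv mouse 6 (0.044), without ip mouse 63 (0.035) and with array weights (0.013). Podocyte and glomerular genes had 2 rises and 1 fall among 15 (3 and 0 without iv mouse 1), 20% called and below the share of all named genes. Vegfa, the endothelial growth factor that podocytes and tubules secrete, rose by 0.98 ± 0.16 (adjusted p = 0.00038), with 10.03, 10.14 and 10.52 in ip saline and 8.84, 9.07 and 9.93 in iv saline.

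Genes known to rise in injured tubules were lower in ip saline or not called. Of 18 tested members 8 fell (44.4%, against 16% of all named genes) and 0 rose, with a median of -0.37. Without iv mouse 1, 10 fell, and without quantile normalization 2 fell, 1 rose and the median was 0.11, so the number of falls depends on the scaling. Krt19, a simple epithelial keratin, had 2.99, 3.02 and 5.09 in ip saline and 3.96, 4.70 and 5.50 in iv saline, a difference of -1.33 ± 0.37 (adjusted p = 0.015). A single ip mouse, mouse 62, had the 5.09, and the other 5 ip values were under 3.45. Cldn4, a tight junction claudin, had 4.41, 4.67 and 4.94 in ip saline and 5.17, 5.74 and 6.29 in iv saline, a difference of -1.06 ± 0.19 (adjusted p = 0.00086). Havcr1, which encodes the injury marker KIM-1, had 8.77, 9.87 and 11.04 in ip saline and 8.88, 9.94 and 10.58 in iv saline. It varied widely in both groups and was not called (-0.03 ± 0.36, adjusted p = 0.97).

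Inflammatory signal genes had 6 falls and 1 rise among only 8 tested of 40 on the list, so most of the list is not seen. The shares were 75% lower and 12.5% higher, against 16% and 12.9% of all named genes. Besides Ptgs2, the NF-kB target and apoptosis inhibitor Birc3 fell by 0.86 ± 0.13 (adjusted p = 0.00027) and the adhesion molecule Icam1 by 0.74 ± 0.22 (adjusted p = 0.019), while the lipopolysaccharide receptor Tlr4 rose by 0.79 ± 0.16 (adjusted p = 0.0019). Without iv mouse 1, 5 fell, and without quantile normalization 1 did, Ptgs2. Markers of lymphocytes and neutrophils mostly did not pass the filter, whereas 16 of 23 named macrophage and myeloid markers did. Of neutrophil genes 0 passed, of T and NK lymphocyte genes 1, of B and plasma cell genes 2, and of 16 macrophage and myeloid genes 1 rose and 1 fell (1 and 3 without iv mouse 1), 12.5% called against the 28.9% of all named genes. The macrophage receptor gene Csf1r averaged 7.45 ± 0.32 in ip saline and 7.45 ± 0.17 in iv saline (SD, n = 6 each) and was not called. Summed macrophage and myeloid levels were 11.70 to 12.10 in ip saline and 11.77 to 12.16 in iv saline (log2).

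Glucocorticoid response genes differed in both directions. Of the 9 tested 4 fell (Tsc22d3, Cdkn1a, Mt1 and Pck1), 1 rose (Klf9, by 0.44 ± 0.13, adjusted p = 0.017) and 4 were not called. The shares were 44.4% lower and 11.1% higher, against 16% and 12.9% of all named genes. The median was -0.25 and became 0.29 without quantile normalization. Tsc22d3, the glucocorticoid-induced leucine zipper, had 7.42, 8.08 and 8.81 in ip saline and 8.82, 9.36 and 10.32 in iv saline, a difference of -1.31 ± 0.26 (adjusted p = 0.0020). A second probe set of about the same brightness was at -2.12 (adjusted p = 9.2e-05) and another, dim one at -0.25 (adjusted p = 0.17). Cdkn1a, the cell cycle inhibitor p21, fell by 1.21 ± 0.14 (adjusted p = 3.2e-05) and Mt1, metallothionein, by 0.94 ± 0.11 (adjusted p = 3.7e-05), both without overlap.

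Tissue that adjoins the kidney showed no common shift. Of 8 mesothelium genes 2 rose and 2 fell (3 each without iv mouse 1), so 50% were called, against 28.9% of all named genes. Of 13 adipose genes 1 rose and 2 fell, or 23.1%, and 0 adrenal genes passed the filter. Adipoq, the fat hormone adiponectin, ran from 2.00 to 9.27 in ip saline and from 1.78 to 9.64 in iv saline and was not called (0.32 ± 1.57, adjusted p = 0.90). Its summed list ran from 12.58 to 13.94 in ip saline and from 12.62 to 13.95 in iv saline (log2), and single mice of either route spanned nearly the whole of both ranges. Red blood cell genes gave 2 tested members and 1 fall, Epor at -0.81 (2 falls without iv mouse 1).

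Housekeeping groups were close to the background of 28.9% called among all named genes. The shares were 27% for oxidative phosphorylation, 29.4% for ribosomal protein and 23.3% for splicing genes. Of 37 oxidative phosphorylation genes 3 rose and 7 fell, with a median of -0.12 (3 and 9 without iv mouse 1). Of 17 cytosolic ribosomal protein genes 1 rose and 4 fell, with a median of -0.14 (2 and 6 without iv mouse 1). The rise was Rpl7, at 0.62 ± 0.06 (adjusted p = 4.3e-06), and ribosomal protein probe sets can also bind transcripts of related copies. Of 30 splicing genes 4 rose and 3 fell, led by Rbmx at 0.76 and Srsf1 at 0.69 (4 and 4 without iv mouse 1). Of 22 interferon response genes 0 rose and 4 fell (18.2%, against 16% of all named genes), among them Bst2 at -0.72. Without iv mouse 1, 3 fell and 2 rose. Of the falls named above, those of Slc22a6, Bsnd, Fxyd4, Bst2, Birc3, Icam1, Epor, Tef, Hlf, Wee1, Cry2, Usp2, Plk2 and Pck1 were not called without quantile normalization.

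**Figure D5:**
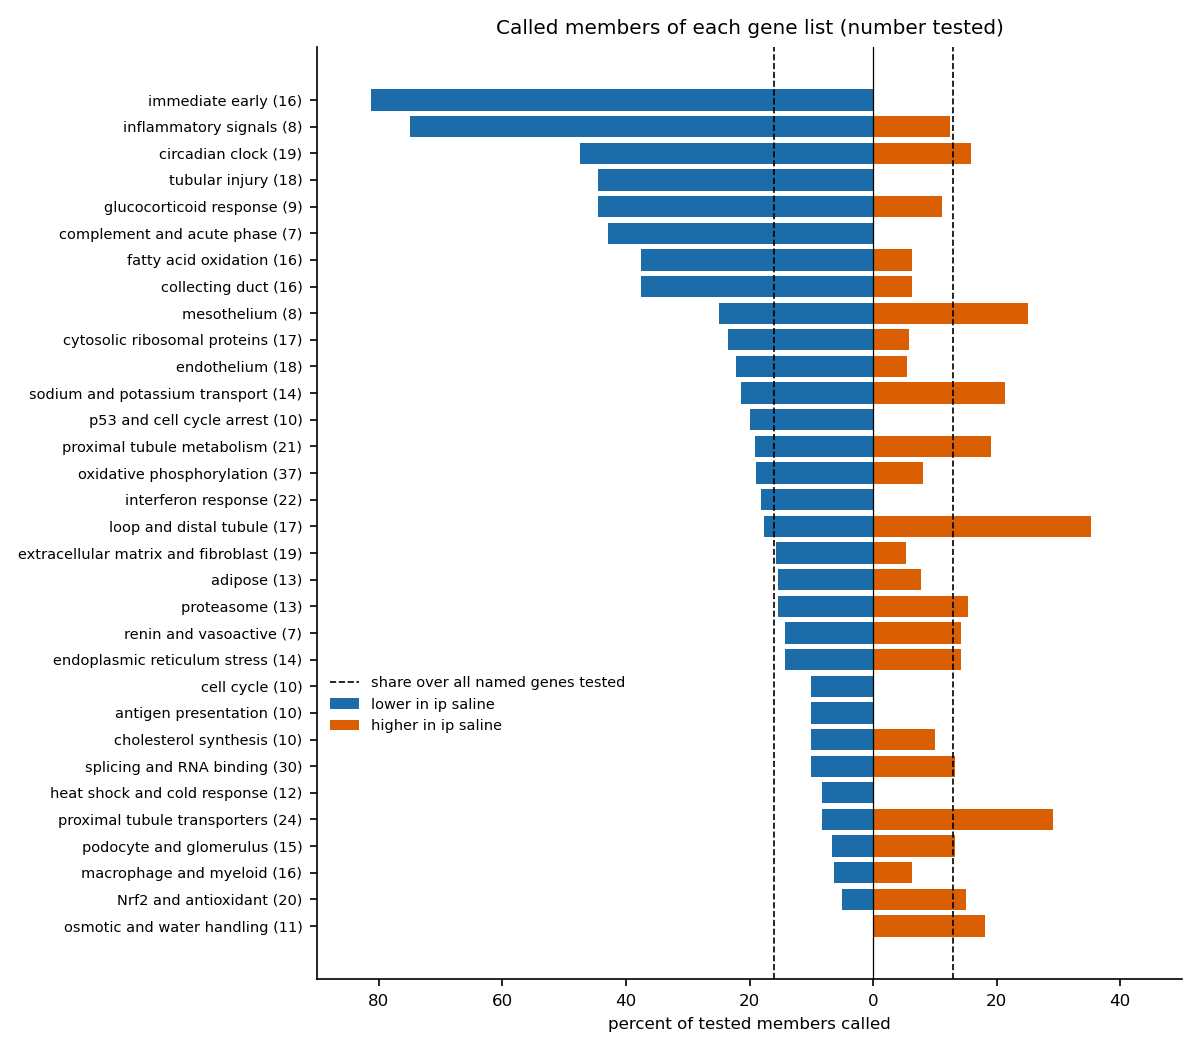
Percent of tested members called higher (orange, right of 0) and lower (blue, left of 0) in ip saline than in iv saline for each gene list with 7 or more tested members (number in brackets), with dashed lines at the 12.9% and 16% of all named genes. Immediate early genes reach 13 of 16 lower. All lists were chosen with earlier results of these data known. Without quantile normalization the medians of the tubular injury, collecting duct and glucocorticoid response lists turn positive, at 0.11, 0.19 and 0.29.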

How the data were processed

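The deposited table holds intensity values of 45101 probe sets. The submitters' processing notes name GCRMA. Neither its version nor the set of arrays processed together is given in the sources used here. Log2 was taken and the 12 saline arrays were quantile normalized.

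Values do not follow the identifiers beside them. In 3 stretches of 11000 rows they follow the identifier order at a constant offset, and 10198 probe sets (7859 genes) were named there. A pair of probe sets of the same gene correlated in level at 0.564, 0.567 and 0.629 (450, 1589 and 195 pairs), against 0.131, 0.202 and 0.159 as listed. Within-group residuals correlated at 0.404 to 0.419, and at 0.251 or more in each of the 43 windows of 250 rows that held 5 or more expressed pairs. The platform annotation was GEO's, and other rows stayed unnamed.

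Probe sets above 3.45 in at least 6 arrays were kept, and the brightest stood for a gene. Routes were compared with limma 3.58.1 (R 4.3.3, eBayes with trend, 10 residual degrees of freedom, two-sided), with Benjamini-Hochberg adjustment over all kept probe sets and a threshold of 0.05. The number of arrays limits the precision. Simulated data had 22742 probe sets, of which 66, 67 and 67 were given log2 changes of 0.5, 1 and 2. Of these 30.3%, 77.6% and 98.5% were recovered, with 13 false calls. The simulated noise was independent and normal, and far fewer probe sets were changed than the 30.6% called here. These rates therefore need not hold for the data. The 126 genes tried under all alternatives were the 12 largest rises and 12 largest falls (called, groups not overlapping, higher mean above 6), fixed genes and up to 4 called members of each list. Every tested immediate early and clock gene was also described. Groups, lists and members were chosen with earlier results of these data known. Mice were treated as independent, and no pair of arrays was identical.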

Additional observations from a re-analysis of the deposited data

Results flagged for a closer look

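The array of iv mouse 1 lay outside the range of the other 5 iv saline arrays, before normalization, by Dixon's test at the 95% level, with the highest median (3.47), the lowest 90th percentile (8.29) and the lowest interquartile range (3.39, all log2). Among 126 named genes the same test, run in 252 groups of 6, marked 29 values, where chance marks about 1 in 20 groups. Of the 29 values 16 were those of iv mouse 1.

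Iv mouse 1 was the highest of its group for Eif2a (7.04), Mgat2 (8.09), Tank (6.81), Umod (13.64), Cpt1a (10.82), Des (4.88), Flt4 (4.71) and Gsta2 (13.81). It was the lowest for Txndc16 (4.37), Nedd4l (9.49), Ccr2 (3.00), Bst2 (5.87), Cfb (10.07), Psmb3 (10.31), Rbmx (6.32) and Srsf1 (9.38). In iv saline, mouse 4 was lowest for Jun (10.12) and highest for Hspb1 (9.55), and mouse 3 was lowest for H2-DMa (4.45) and Birc3 (6.51).

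In ip saline, mouse 64 was the highest for Plk3 (5.35), Cebpb (8.05) and Cdkn1a (6.72), all stress-responsive genes. Mouse 62 was the highest for Tmem123 (9.41), Krt19 (5.09) and Flt4 (3.16), mouse 61 the highest for Npr3 (7.12) and the lowest for H2-DMa (3.70), and mouse 63 the lowest for Des (3.49).

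The route difference in saline was lower than that at 50 mg/kg, by the test of the difference itself, for 9 of the named genes. The differences between the 2 were -4.06 for Nr4a1, -3.21 for Ciart, -2.60 for Rasd1, -2.47 for Plk3, -2.41 for Csrnp1, -1.87 for Id1, -1.84 for Jun, -1.78 for Cebpb and -1.50 for Ptgs2 (log2).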

How the results depend on the processing

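Values as deposited gave 14294 calls over all probe sets (13549 higher and 745 lower in ip saline), 3352 among named genes (3215 and 137) and 3607 named genes at 50 mg/kg (3522 and 85). No filter gave 16311 and 2680, a filter at 6 gave 3831 over all probe sets, and 127 named genes were called and at least 2-fold. Leaving out 1 mouse gave 5769 (without ip mouse 61) to 8441 (without iv mouse 1) calls over all probe sets and 1249 to 1902 among named genes. Other alternatives, which were array weights, median centring, no trend, all 48 arrays together and the probe set with the lowest mean, kept the counts within 1.5 times. Of 126 named genes 31 lost their call with all 48 arrays fitted together and 4 to 18 on leaving out a mouse, with no change of sign there. Signs changed without quantile normalization for Ebp (0.18), Nedd4l (0.10), Slc13a2 (0.07), Cp (0.04), Cfb (0.14), Krt7 (0.08), Ramp2 (0.17), Bmp7 (0.18), Rps27l (0.07), Psmd8 (0.21) and Luc7l2 (0.04). With median centring they changed for Ebp (0.02), Ramp2 (0.01), Bmp7 (0.02) and Psmd8 (0.05). With the dimmer probe set they changed for Avpr1a (-0.02), Aqp7 (-0.51), Slc12a1 (-0.38), Bmp7 (0.19), Rps27l (0.12), Rpl13a (0.42) and Sod2 (-0.09). The cause was not tested. The 24 largest changes kept direction and call under every alternative that gave them a value. None of these 24 genes had a second kept probe set. Of 25 other kept probe sets of called named genes, an alternative added after seeing the data, 17 agreed in direction and 8 did not. Only 9 of the 17 were themselves called, and 2 of the 8 were called in the opposite direction (Aqp7 and Rpl13a). No paired analysis was possible because every mouse has its own number and no number is shared between groups. Names rest on position in the table, route cannot be told apart from handling, and changes of genes under 3.45 in 1 group are approximate in size.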

Other observations

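Other genes below the 12 largest falls, named here after their values were seen, were also lower in ip saline. Noct, a deadenylase with a strong daily rhythm, averaged 7.70 ± 0.64 in ip saline and 9.76 ± 0.42 in iv saline (SD, n = 6 each), a difference of -2.06 ± 0.27 (SE, limma adjusted p = 7.6e-05). Hbegf, a growth factor for the epidermal growth factor receptor, averaged 4.46 ± 0.52 in ip saline and 6.21 ± 0.42 in iv saline, a difference of -1.75 ± 0.25 (adjusted p = 0.00014). Nfkbiz, a regulator of NF-kB, averaged 6.87 ± 0.11 in ip saline and 8.16 ± 0.81 in iv saline, a difference of -1.30 ± 0.29 (adjusted p = 0.0041). Rcan1, an inhibitor of calcineurin, differed by -1.18 ± 0.15 (adjusted p = 6.4e-05) and Tob2, an antiproliferative factor, by -1.29 ± 0.15 (adjusted p = 3.3e-05).

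Other falls were those of an apolipoprotein, a sorting protein and a channel. Apoc1 averaged 4.25 ± 0.59 in ip saline and 6.12 ± 0.26 in iv saline, a difference of -1.87 ± 0.24 (adjusted p = 6.1e-05). Hgs, which sorts proteins in endosomes, averaged 5.59 ± 0.26 in ip saline and 7.25 ± 0.18 in iv saline, a difference of -1.66 ± 0.14 (adjusted p = 1e-06). Kcnk5, a potassium channel of the proximal tubule, averaged 8.60 ± 0.45 in ip saline and 9.91 ± 0.36 in iv saline, a difference of -1.30 ± 0.20 (adjusted p = 0.00032). Among further rises were Cpox, an enzyme of haem synthesis, at 1.15 ± 0.17 (adjusted p = 0.00018), and Hnmt, which breaks down histamine, at 1.13 ± 0.14 (adjusted p = 4.1e-05).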
